A study of Homo sapiens with 31 samples.

Results

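The comparison described here is that of day 90 cultures grown with insulin-like growth factor 1 (IGF-1) against untreated cultures of the same day. Its members are 6 of the 15 RNA-seq libraries, 3 per group, chosen by the treatment and time point given for each sample. All libraries came from H9, an established human embryonic stem (ES) cell line, so replicates are parallel cultures of a single line and p-values measure the spread between those cultures. The cells had been plated in triplicate and differentiated as embryoid bodies towards retina, and whole cultures were harvested without picking out retinal structures. The treated cultures had received recombinant human IGF-1 at 5 ng/ml up to day 37 and at 10 ng/ml from then on, and the untreated cultures had received none. RNA integrity numbers at day 90 lay between 7.1 and 8.9. What was measured was the number of reads across back-splice junctions, at which the end of an exon is joined to the start of the same or an upstream exon, the mark of a circular RNA (circRNA).

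IGF-1 is a secreted ligand of a receptor tyrosine kinase, IGF1R. The activated receptor signals through insulin receptor substrates to the PI3K-AKT-mTOR pathway and through RAS to the MAP kinases, and promotes growth, survival and proliferation; in pluripotent cell cultures it is used to favour retinal fates. CircRNAs are made from the exons of ordinary genes in place of, or alongside, the linear transcript, and lack free ends, which makes many of them long-lived. A gene with back-splice reads is called a host gene below, and its count is the sum over its circRNAs.

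The junctions that the results turn on are shown first, each as the bases on both sides of the back-splice, read from the GRCh37 genome in the direction of transcription. Lower case gives the end of the donor exon and capitals give the start of the acceptor exon. All of them join exon ends annotated in GENCODE. They are the only circRNA past the threshold (NPAS3), the leading or a much varying circRNA of host genes with low p-values, and the most abundant circRNA of these libraries (RMST). Both sides are coding sequence in all but EYS and RMST, for which a shorter stretch is given.
NPAS3 exon 3 to exon 2, chr14:33684388-33684793, plus strand: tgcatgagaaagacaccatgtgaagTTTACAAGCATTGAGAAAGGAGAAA
KIF5B exon 20 to exon 18, chr10:32308786-32310215, minus strand: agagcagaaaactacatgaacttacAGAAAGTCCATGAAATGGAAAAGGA
MID2 exon 3 to exon 2, chrX:107083900-107097934, plus strand: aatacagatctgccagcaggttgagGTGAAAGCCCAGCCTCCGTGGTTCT
SEPTIN10 exon 5 to exon 2, chr2:110332158-110350696, minus strand: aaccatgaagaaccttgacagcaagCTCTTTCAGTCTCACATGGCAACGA
RAPGEF5 exon 5 to exon 2, chr7:22347958-22357656, minus strand: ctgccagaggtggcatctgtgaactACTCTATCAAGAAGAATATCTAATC
EYS exon 5 to exon 3, chr6:66200487-66205886, minus strand: atgagcaattttcagGTGTTTTTTGAAAAC
RMST exon 12 to exon 6, chr12:97886239-97954825, plus strand: gaatggcttcatgagATTCTCAGGATGATG

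Untreated replicate 1 stood apart from the other day 90 libraries. It held 42858 back-splice reads, against 74180 and 93433 in untreated replicates 2 and 3 and 88415, 73481 and 84646 in treated replicates 1, 2 and 3. Across the 2787 host genes with at least 50 counts over the 15 libraries, its Spearman correlation with each of the other 5 libraries was 0.812 to 0.831, as a description. Without it, the 6 treated-untreated pairs had correlations of 0.83 to 0.86, those of the treated libraries with each other were 0.84 to 0.856, and that of untreated replicates 2 and 3 was 0.848. Pearson correlations of log2 values did not set untreated replicate 1 apart. They were 0.901 to 0.914 with the other libraries, beside 0.899 to 0.927 for pairs without it. Because of its few reads, the main results are given with and without this library.

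The total output of circRNA did not differ beyond the spread between cultures. Back-splice reads per 1000000 sequenced reads (RPM) were 309, 535 and 610 in untreated replicates 1, 2 and 3, and 668, 474 and 580 in treated replicates 1, 2 and 3. The untreated library with few reads was the lowest, and the other 5 libraries overlapped. The group means were 485 ± 156 RPM (SD, n = 3) untreated and 574 ± 97.1 RPM (SD, n = 3) treated, a ratio of 1.18 (two-sided exact permutation test, p = 0.6, where 3 against 3 cannot go below 0.1). Without untreated replicate 1 the untreated mean was 573 ± 52.6 RPM (SD, n = 2) and the ratio 1 (exact permutation test, p = 1, smallest possible p = 0.2). The sequenced read numbers of the untreated libraries are uncertain: those implied by the study's normalised counts gave 406, 554 and 666 RPM untreated, a ratio of 1.06 (exact permutation test, p = 0.7).

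**Figure D1:**
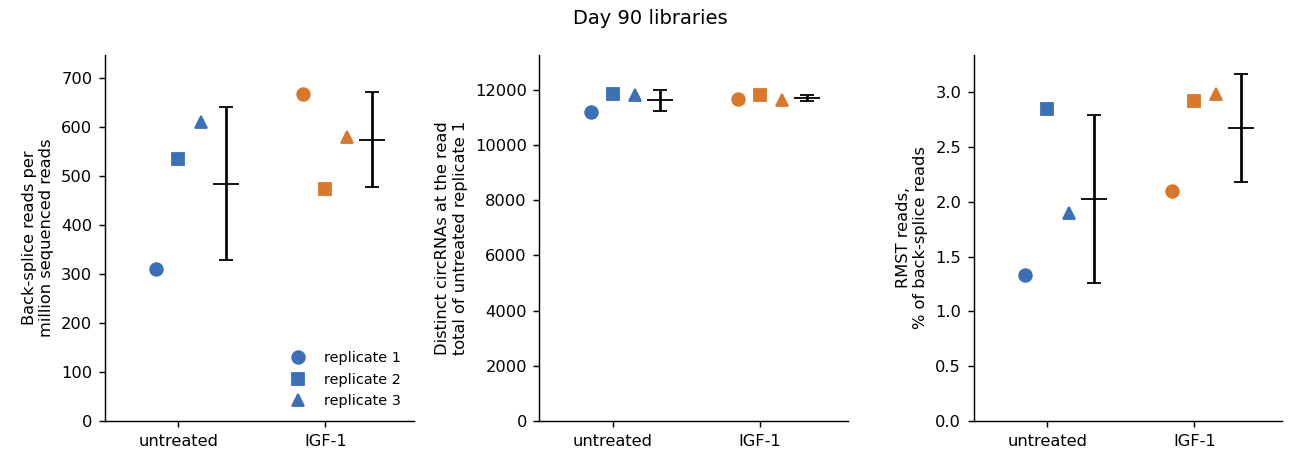
Values of the 6 day 90 libraries (symbols, by replicate number) with mean and SD (black) for untreated and IGF-1 treated cultures: back-splice reads in RPM, distinct circRNAs expected at 42858 reads, and the percentage of back-splice reads from RMST. In each panel the groups overlap, and untreated replicate 1 is the lowest point.

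The diversity and structure of circRNAs were also close. At the 42858 reads of the shallowest library, the expected number of distinct circRNAs was 11183, 11849 and 11794 in the untreated and 11646, 11818 and 11626 in the treated libraries (exact permutation test, p = 0.9). The corresponding numbers of host genes, at the assigned reads of that library, were 4100, 4214 and 4293 untreated and 4230, 4192 and 4232 treated (exact permutation test, p = 0.8). The median genomic span of the circRNAs found was 8882 ± 200 bases untreated and 8976 ± 441 bases treated (SD, n = 3; exact permutation test, p = 0.9), and the mean exon number was 4.44 ± 0.0909 and 4.49 ± 0.115 (SD, n = 3; exact permutation test, p = 0.6). Non-coding host genes gave 2.67 ± 0.842% of back-splice reads untreated and 3.25 ± 0.438% treated (SD, n = 3; exact permutation test, p = 0.4). Without untreated replicate 1 the treated mean at that depth was 125 circRNAs below the untreated one (exact permutation test, p = 0.4), and the exact permutation p was 0.6 for host genes, 1 for span, 1 for exon number and 0.8 for the non-coding share.

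At the level of host genes, 1 gene was called, though not in every setting tried. Of 4933 host genes with at least 10 counts over the 15 libraries, NPAS3 was lower in treated cultures, which is 0.0203% of those tested, and 0 were higher (edgeR's quasi-likelihood test, Benjamini-Hochberg adjusted p under 0.05). At an unadjusted p under 0.05 there were 122 higher (2.47%) and 45 lower (0.912%) genes with edgeR, and 40 higher and 5 lower with DESeq2's Wald test, which had 0 past the adjusted threshold. The excess of higher genes moved with the scaling: edgeR gave 96 higher and 70 lower with TMM factors and 79 higher and 82 lower with DESeq2 size factors. The median log2 change of all genes was 0.22 relative to sequenced reads, 0.03 with TMM and -0.00079 without untreated replicate 1, and single log2 changes below are to be read against it. Without that library, 4879 genes were tested, NPAS3 was again lower (0.0205%) and 0 were higher, with 49 higher (1.0%) and 65 lower (1.33%) at an unadjusted p under 0.05.

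**Figure D2:**
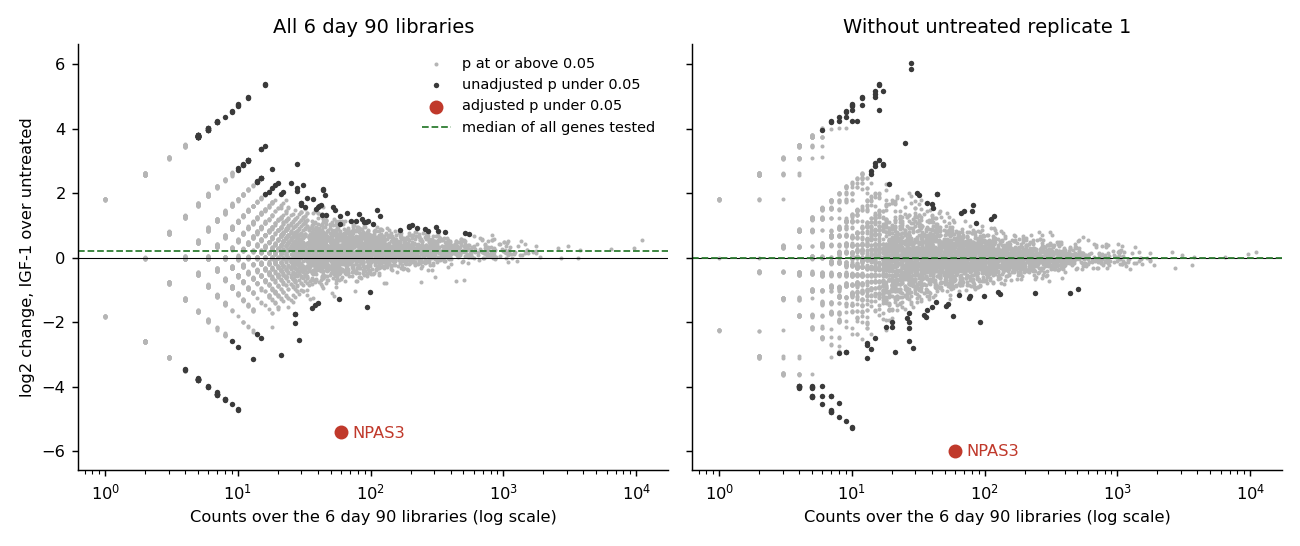
log2 change of each host gene (IGF-1 over untreated, edgeR) against its summed count over the 6 day 90 libraries (log scale), with all libraries and without untreated replicate 1. Points are host genes with at least 1 count at day 90; NPAS3 is the only gene with an adjusted p under 0.05, and the median (dashed) is at 0.22 on the left and -0.00079 on the right.

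NPAS3 encodes a basic helix-loop-helix PAS transcription factor of the nervous system. Its counts were 0, 33 and 26 in untreated replicates 1, 2 and 3 and 0, 0 and 1 in treated replicates 1, 2 and 3, so that 1 untreated library was at the treated level and the groups overlapped. The summed counts were 59 and 1, a ratio of untreated to treated per sequenced read of 59.4, with a 95% exact binomial interval of 10.3 to 2386 that covers counting error only. The fitted log2 change was -5.41 ± 0.97 (SE; adjusted p = 0.000139 from edgeR) and -5.99 ± 0.97 without untreated replicate 1 (adjusted p = 8.9e-06 from edgeR); with a group near 0 these values depend on the prior count. Without untreated replicate 2 the adjusted p from edgeR was 0.155. In bulk libraries such as these, fewer cells of a kind and less RNA per cell cannot be told apart.

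Nearly all of the NPAS3 reads crossed the junction printed above, which joins coding exon 3 to coding exon 2 (exon 2 at 33684388 to 33684632, 245 bases; exon 3 at 33684743 to 33684793, 51 bases) into a circle of 296 bases. It had 0, 32 and 26 counts untreated and 0, 0 and 0 treated. That is 0.231 and 0.170 RPM in untreated replicates 2 and 3, while a count of 0 allows up to 0.0217 RPM in untreated replicate 1 and 0.00692 RPM over the 3 treated libraries, taking 3 counts as the limit. Pooled over the 3 untreated libraries the level was 0.135 RPM, 19.5-fold the treated limit. This ratio covers counting error only and not the spread between cultures, as untreated replicate 1 was at 0 like the treated libraries. A circle of exon 2 alone had 0, 1 and 0 counts untreated and 0, 0 and 1 treated. At day 45 the longer circle had 21 counts in untreated replicate 2 and 0 in each of the other 5 libraries, and it had 0 in all day 0 libraries.

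Single junctions gave the same picture. Of 12498 circRNAs tested, 1 was lower (0.008%), that of NPAS3 (log2 change -7.20 ± 1.17 (SE), adjusted p = 1.1e-05 from edgeR), and 0 were higher. At an unadjusted p under 0.05, 371 were higher (2.97%) and 150 lower (1.2%) with edgeR. Without untreated replicate 1, 12155 were tested and NPAS3 was again the 1 lower (0.00823%), with 192 higher (1.58%) and 197 lower (1.62%) at an unadjusted p under 0.05. Presence in a part of the libraries was rare among abundant circRNAs: of 998 with at least 20 counts in any day 90 library, 3 were at 0 in at least 3 of the 6. Besides NPAS3 these included a SHANK2 circRNA (chr11:70505933-70507783), with 9, 0 and 19 counts untreated and 24, 0 and 0 treated. SHANK2, named after its values were seen, was at 0 in at least 1 library of each group, and NPAS3 was the 1 of the 998 with reads in untreated libraries only.

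Most of the 10 host genes with the lowest p in each direction, among those with at least 30 counts at day 90, are described next. They were chosen by this same contrast, so their differences are a description, and all but NPAS3 had an adjusted p of 1 from edgeR. The higher group was led by KIF23, a mitotic kinesin of the central spindle, with 2, 3 and 3 counts untreated and 12, 9 and 15 treated (log2 change 2.12 ± 0.69, SE). KIF5B, the heavy chain of conventional kinesin, had 5, 11 and 13 counts untreated and 28, 28 and 26 treated (log2 change 1.49 ± 0.50). MID2, a microtubule-associated ubiquitin ligase, had 2, 3 and 3 counts untreated and 15, 11 and 10 treated (log2 change 2.12 ± 0.74), all on the junction shown above. In these 3 genes every treated library lay above every untreated one, per sequenced read and per back-splice read; of all genes tested, 4.78% were higher without overlap and 3.65% lower per back-splice read. The KIF23 reads were spread over 9 circRNAs, of which the leading one had 10 counts, and the printed KIF5B junction had 1, 4 and 6 counts untreated and 12, 12 and 14 treated.

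PPP3CC, a catalytic subunit of calcineurin, had 11, 8 and 15 counts untreated and 34, 19 and 30 treated, without overlap. CHMP4A, a subunit of the ESCRT-III membrane scission complex, had 3, 7 and 4 untreated and 11, 16 and 13 treated. PIGU, part of the GPI transamidase, had 1, 4 and 0 untreated and 4, 11 and 11 treated. In 6 of the 10 higher genes the groups did not overlap in RPM, where 5.23% of all genes tested had treated libraries all above untreated ones; the same contrast chose the genes, so nothing is read from this. RGS12, a regulator of G protein signalling, had 0, 6 and 3 counts untreated and 10, 6 and 20 treated. DHRS3, a retinal reductase of retinoid metabolism, had 10, 1 and 12 untreated and 29, 11 and 19 treated. Both overlapped in RPM, as did RELL1 (25, 23 and 59 untreated, 82, 39 and 84 treated).

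SEPTIN10, a filament-forming GTPase, held circRNAs that differed from each other. Its counts were 5, 33 and 30 untreated and 67, 17 and 51 treated. The printed circRNA of 4 exons had 0, 12 and 0 counts untreated and 30, 10 and 20 treated, and a circRNA of 3 exons that shares its acceptor had 0, 16 and 22 untreated and 12, 7 and 17 treated. As a share of SEPTIN10 reads, the 4-exon circle took 0%, 36.4% and 0% untreated and 44.8%, 58.8% and 39.2% treated. The treated shares were all above the untreated ones. The gene was chosen by this contrast and the circRNA after its values were seen, so nothing is read from this. The share in untreated replicate 1 rests on 5 counts of the gene. Without untreated replicate 1 the log2 change of SEPTIN10 was 0.56 in place of 1.02 and that of RGS12 1.40 in place of 1.95. For the 10 higher genes together it ranged from 0.56 (SEPTIN10) to 2.02 (PIGU) without that library.

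**Figure D3:**
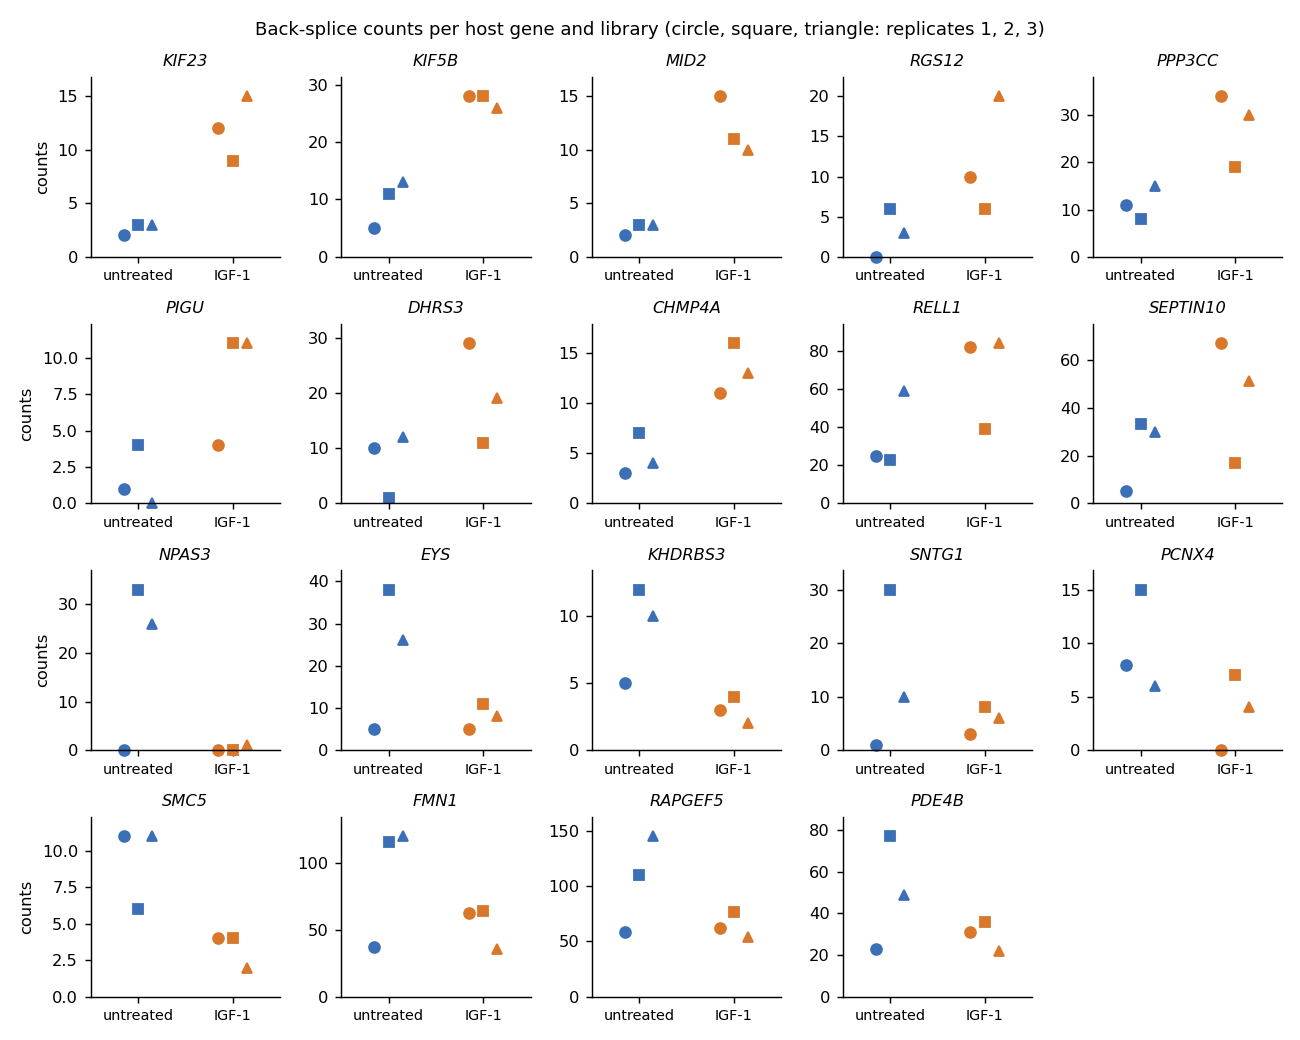
Back-splice counts of host genes with the lowest p in each direction (upper rows higher, lower rows lower with IGF-1) in each library; each panel starts at 0 and has its own scale. Counts are not divided by library size, and untreated replicate 1 (blue circle) has the fewest reads, 42858.

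Among the lower genes, 3 of 10 had groups that did not overlap in RPM (1.4% of all genes tested). Among these, KHDRBS3, an RNA-binding splicing regulator, had 5, 12 and 10 untreated and 3, 4 and 2 treated. SMC5, of the SMC5/6 DNA repair complex, had 11, 6 and 11 untreated and 4, 4 and 2 treated.

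Besides NPAS3, 5 other lower genes had fewer counts in untreated replicate 1 than in both other untreated libraries, and a larger contrast without it. EYS, a photoreceptor gene of inherited retinal disease, had 5, 38 and 26 counts untreated and 5, 11 and 8 treated. Its log2 change was -1.53 ± 0.61 (SE) with all libraries and -1.99 without untreated replicate 1. RAPGEF5, a guanine nucleotide exchange factor of RAP GTPases, had 59, 110 and 145 counts untreated and 62, 77 and 54 treated, and FMN1, an actin-nucleating formin, 37, 116 and 120 untreated and 63, 64 and 36 treated. Their log2 changes were -0.70 and -0.73 with all libraries and -0.97 and -1.10 without untreated replicate 1. The same held for PDE4B, a cAMP phosphodiesterase, with 23, 77 and 49 counts untreated and 31, 36 and 22 treated, and for SNTG1, a syntrophin, with 1, 30 and 10 untreated and 3, 8 and 6 treated. PCNX4, the remaining gene, had 8, 15 and 6 untreated and 0, 7 and 4 treated, with overlap.

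The printed RAPGEF5 junction had 33, 67 and 78 counts untreated and 37, 47 and 34 treated, and a circRNA with the same acceptor and a later donor had 22, 43 and 65 untreated and 24, 28 and 16 treated. In both circRNAs, as in the gene, untreated replicates 2 and 3 had the highest counts, not divided by library size. Per 100000 back-splice reads, RAPGEF5 stood at 138, 148 and 155 untreated and 70.1, 105 and 63.8 treated, without overlap. PDE4B did not overlap by this measure either, while EYS, FMN1 and SNTG1 did. Of all genes tested, 3.65% were lower without overlap per back-splice read, and the same contrast chose these genes. The printed EYS junction had 4, 22 and 11 counts untreated and 0, 5 and 4 treated, close to 49.5% of the reads of its gene.

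The most abundant host genes did not differ beyond their spread. RMST, a long non-coding RNA of neural differentiation, had 570, 2112 and 1774 counts untreated and 1858, 2148 and 2526 treated. This is 4.11 RPM in untreated replicate 1 and 11.6 to 17.3 RPM in the other 5 libraries, among which the groups overlap. Its log2 change was 0.55 ± 0.34 (SE) and 0.17 without that library. RMST made up 2.03 ± 0.766% of back-splice reads untreated and 2.67 ± 0.493% treated (SD, n = 3; exact permutation test, p = 0.2), and its printed junction held 97.1 to 98.0% of RMST reads in each library. SMARCA5, a chromatin remodelling ATPase, had 638, 872 and 1488 counts untreated and 1332, 879 and 1303 treated. MAN1A2, a Golgi mannosidase, had 997, 1500 and 1879 untreated and 1979, 1607 and 1738 treated.

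Over the 10 host genes with the highest counts, which also include RERE, MSANTD3-TMEFF1, HIPK3, ATRNL1, STK39, PCCA and UBAP2, the log2 change ranged from -0.02 to 0.55 with SEs of 0.34 to 0.35. Without untreated replicate 1 the range was -0.31 to 0.19. In all 10 the groups overlapped. MSANTD3-TMEFF1 is a readthrough locus that shares exons with its neighbours, so that its reads may belong to either. Over all 316 host genes with at least 300 counts at day 90, 90% of log2 changes lay between -0.07 and 0.58 with all libraries and between -0.33 and 0.41 without untreated replicate 1. The extremes were FMN1 (-0.73 and -1.10) and RELL1 (0.97 and 0.79).

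The insulin and IGF-1 signalling genes were followed as a list of 58, of which 47 had back-splice reads at day 90 and 44 could be tested. None was called in either direction, and at an unadjusted p under 0.05 there was 1 higher and 0 lower (edgeR), beside 2.47% and 0.912% of all genes. The median log2 change of the list was 0.20, beside 0.22 for all genes, and -0.01 without untreated replicate 1, beside -0.00079. The list took 1.54%, 1.46% and 1.32% of back-splice reads in the untreated and 1.43%, 1.54% and 1.15% in the treated libraries, which overlap.

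At the top of the pathway, IGF1R had 8, 17 and 27 counts untreated and 38, 10 and 21 treated (log2 change 0.45 ± 0.47, SE), and the insulin receptor INSR had 3, 2 and 6 untreated and 6, 5 and 3 treated. These receptors were named for their role. IGF1 and IGF2, the ligands, and the adaptors IRS1, IRS2 and IRS4 had no back-splice reads at day 90. Among the kinases below them, GSK3B, which AKT phosphorylates, had 92, 117 and 161 untreated and 181, 126 and 86 treated (log2 change 0.11 ± 0.37).

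RICTOR, of the mTORC2 complex, had 68, 75 and 105 counts untreated and 130, 82 and 81 treated. PHIP, a protein that binds insulin receptor substrates, had 56, 104 and 118 untreated and 104, 107 and 111 treated. The exchange factor SOS2 had 30, 75 and 89 untreated and 79, 61 and 78 treated, and the kinase BRAF 29, 41 and 34 untreated and 28, 46 and 37 treated. The other members named by count, PIK3C3, PHLPP2, PIK3C2A and NF1, had log2 changes between 0.03 and 0.53. In none of these were the treated libraries all on one side of the untreated ones. The 1 gene with an unadjusted p under 0.05 was IGF2BP2, an RNA-binding protein of IGF2 mRNA, with 5, 11 and 18 counts untreated and 29, 26 and 15 treated (log2 change 1.05 ± 0.49, and 0.71 without untreated replicate 1, where its unadjusted p from edgeR was 0.159). Without that library the 1 member at an unadjusted p under 0.05 was MAP2K1, a MAP kinase kinase, with 1, 9 and 18 counts untreated and 6, 6 and 3 treated (log2 change -1.38 without untreated replicate 1 and -0.86 with it).

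**Figure D4:**
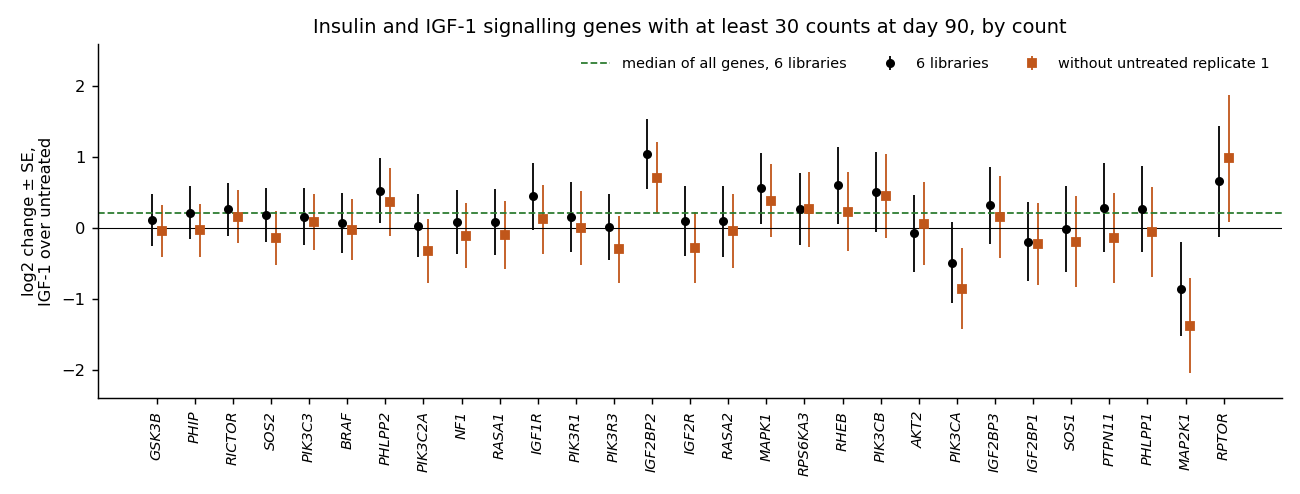
log2 change ± SE (edgeR, IGF-1 over untreated) of insulin and IGF-1 signalling genes with at least 30 counts at day 90, ordered by count, with all libraries (black) and without untreated replicate 1 (orange). None has an adjusted p under 0.05, and most points lie near the median of all genes at 0.22 (dashed).

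Few regulators of retinal fate had back-splice reads. Of 49 eye field and retinal development genes, 10 had back-splice reads at day 90, and PAX6, RAX, OTX2 and CRX had none, so the labelled retinal fate cannot be checked from circRNAs. Of the 10, 6 could be tested and none was called. At an unadjusted p under 0.05 there was 1 lower (edgeR), beside 0.912% of all genes. It was PROX1, a homeobox factor of horizontal cells, with 0, 6 and 1 counts untreated and 0 in each treated library. DACH1, a retinal determination factor, had most, with 10, 37 and 35 counts untreated and 31, 36 and 19 treated. Of 58 photoreceptor and inherited retinal disease genes, 34 had reads and 27 were tested. None was called, and EYS was the 1 lower at an unadjusted p under 0.05 (edgeR), beside 0.912% of all genes. The median log2 change of the 27 was 0.49, and 0.16 without untreated replicate 1. BBS9, of the ciliary BBSome, had 101, 124 and 157 untreated and 184, 112 and 124 treated, and ADGRV1, an adhesion receptor of photoreceptor cilia and hair cells, 16, 49 and 53 untreated and 48, 46 and 51 treated. LCA5, a ciliary protein of Leber congenital amaurosis, had 12, 8 and 23 untreated and 35, 32 and 11 treated (log2 change 0.87 ± 0.48, SE), and CDH23 had 12, 19 and 35 untreated and 23, 23 and 14 treated.

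The synapse, neuronal channel and axon guidance list had a lower median than all genes. Of 51 members 41 had reads and 33 were tested. NPAS3, a transcription factor gene placed in this list, was the 1 called lower and the 1 lower at an unadjusted p under 0.05, with 0 higher. It is the gene already called above by the same contrast, and the list was drawn up with earlier results of these data known. Nothing about the list is therefore read from this call. The median log2 change was -0.08 beside 0.22 for all genes, -0.35 beside 0.03 with TMM, and -0.35 beside -0.00079 without untreated replicate 1. The list took 0.637%, 0.741% and 0.603% of back-splice reads untreated and 0.552%, 0.633% and 0.421% treated, so the groups overlapped. RIMS2, of the presynaptic active zone, had 33, 98 and 78 counts untreated and 40, 87 and 47 treated, and its paralogue RIMS1 25, 72 and 61 untreated and 38, 60 and 40 treated. ERC1 had 57, 88 and 91 untreated and 103, 106 and 78 treated, and STXBP5 62, 45 and 93 untreated and 95, 42 and 58 treated.

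The cell cycle and progenitor list had reads from 35 of 36 members, of which 32 were tested. None was called, and 2 were higher and 1 lower at an unadjusted p under 0.05, beside 2.47% and 0.912% of all genes. In RPM, 3 members had treated libraries all above and 2 all below the untreated ones, beside 5.23% and 1.4% of all genes. The median log2 change was 0.33, and 0.02 without untreated replicate 1. BRIP1, a helicase of DNA repair, had 7, 8 and 11 counts untreated and 21, 20 and 19 treated (log2 change 1.19 ± 0.51, SE), without overlap. ATAD2, a chromatin-bound ATPase, had 10, 20 and 18 untreated and 24, 25 and 33 treated, also without overlap. The 1 lower gene was ECT2, an exchange factor of cytokinesis, with 4, 4 and 4 counts untreated and 1, 1 and 0 treated (log2 change -2.38 ± 1.18). SMC4, of condensin, had 5, 8 and 8 untreated and 10, 7 and 12 treated, and KIF20B 1, 12 and 6 untreated and 8, 5 and 11 treated. The list took 0.138%, 0.191% and 0.166% of back-splice reads untreated and 0.189%, 0.196% and 0.202% treated, which overlap.

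**Figure D5:**
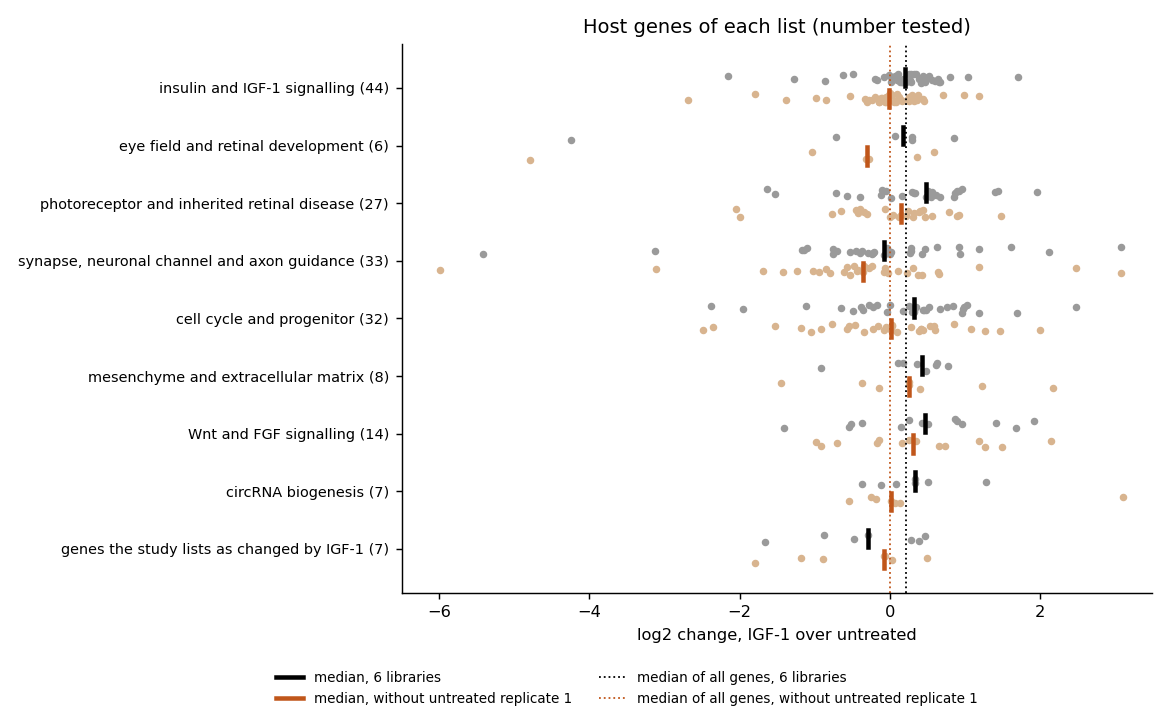
log2 change (edgeR, IGF-1 over untreated) of the tested host genes of each list with at least 5 tested members, with all libraries (grey, black median) and without untreated replicate 1 (orange), vertical position within a row being arbitrary. Dotted lines are the medians of all genes, at 0.22 and -0.00079; the far left point of the synapse list is NPAS3.

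Of the other lists, Wnt and FGF signalling (14 tested of 29) had a median log2 change of 0.47, and 0.31 without untreated replicate 1. Its member LRP6, a Wnt co-receptor, had 20, 44 and 36 counts untreated and 53, 43 and 46 treated. Mesenchyme and extracellular matrix (8 tested of 25) had a median of 0.43 and 0.26, with a summed level of 0.332, 0.577 and 0.522 RPM untreated and 0.748, 0.697 and 0.624 RPM treated, without overlap, and a share of back-splice reads that overlapped. Its member ADAMTS6, a matrix protease, had 28, 50 and 53 counts untreated and 68, 80 and 54 treated. CircRNA biogenesis factors (7 tested of 20) had 0.34 and 0.01, and QKI, an RNA-binding protein that promotes circle formation, had 41, 67 and 71 untreated and 88, 60 and 76 treated. Of the long non-coding hosts listed only RMST and FIRRE had reads, FIRRE with 58, 158 and 142 untreated and 133, 123 and 98 treated. None of these lists had a member called or at an unadjusted p under 0.05.

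Markers of other cell types were scarce. Over the 6 libraries their summed level was 0.00722 to 0.0685 RPM for astroglia and Muller glia, 0 to 0.0891 RPM for lens and surface epithelium, 0 to 0.00756 RPM for endothelium and blood, 0 to 0.0227 RPM for pluripotency, 0.0217 to 0.164 RPM for muscle, 0.0505 to 0.192 RPM for other brain regions and 0.0433 to 0.151 RPM for pigment epithelium. GFAP, PECAM1 and POU5F1 had no back-splice reads. These levels rest on few counts. Muscle markers lay at 0.0217, 0.0577 and 0.0653 RPM untreated and at 0.0680, 0.0710 and 0.164 RPM treated, without overlap. Their share of back-splice reads overlapped, at 0.00700%, 0.0108% and 0.0107% untreated and 0.0102%, 0.0150% and 0.0284% treated. Pigment epithelium markers took 0.0140%, 0.0108% and 0.0193% of back-splice reads untreated and 0.0226%, 0.0218% and 0.0236% treated, without overlap, although their RPM overlapped. The part of these cell types in the other results was not tested. GRHL2, an epithelial factor, had 0, 0 and 3 counts untreated and 2, 4 and 9 treated. With all libraries it was the 1 member of these lists at an unadjusted p under 0.05 (edgeR), beside 2.47% of all genes higher. A list of 29 genes that the study names for IGF-1 was chosen on libraries of this series, so it is no independent evidence. The study drew the list from gene expression rather than back-splice reads. It compared treated with untreated samples within time points and over all samples, and reports no significant gene for the last time point alone. The list had 7 tested members, of which none was called. Its median log2 change was -0.28, and -0.08 without untreated replicate 1.

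The day 90 contrast shares no library with the corresponding contrast at day 45, and both were fitted together. Of 4933 host genes, 0 had an adjusted p under 0.05 for the difference of the 2 effects (0.0%), with a smallest adjusted p of 0.0587, and 217 had an unadjusted p under 0.05 (4.4%; edgeR). At day 45 the median log2 change was -0.29 and 67.9% of genes were below 0. The 10 lower genes named above were all below 0 at day 45, and 7 of them below that median. Of the 10 higher genes, 4 were above 0 at day 45 and 6 below. PPP3CC had the lowest p for the difference among them, with 31, 34 and 31 counts in untreated and 8, 17 and 16 in treated day 45 cultures, a log2 change of -1.19 against 1.29 at day 90 (unadjusted p of the difference 0.000279, adjusted p = 0.275 from edgeR).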

How the data were processed

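Reads of ribodepleted total RNA were screened by the authors with PTESFinder against GENCODE 19 transcripts on hg19, guided by known junctions, and the deposited values are raw counts of back-splice reads per circRNA and library, not normalised or pooled. Submitters' processing notes also name TopHat2 2.0.10 and HTSeq 0.6.1, which concern linear RNA. Library names with letters a, b and c were read as replicates 1, 2 and 3, which the study's normalised counts bear out for untreated libraries.

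Of 55371 circRNAs, 48274 were assigned to genes of GENCODE 44 on GRCh37 by their transcript and 6865 by the ends of their exons. The 190 with more than 1 matching gene and the 42 without any were left out of the 8091 host genes. Junctions were read from the GRCh37 genome.

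edgeR 4.0.16 (R 4.3.3; glmQLFit and glmQLFTest) was fitted on counts of all 15 libraries with a mean per group, without TMM factors or block, at a minimum of 10 counts, with sequenced reads of the study's read list as library sizes; SEs were taken from log2 change and F. That list names day 90 replicate 1 in 2 lines and replicate 2 in none, so the mean was used for both. Normalised counts of the study imply other read numbers for untreated day 90 libraries (those listed for day 45 IGF-1 libraries of the same number), tried as an alternative after seeing the data. Values per library were tested by exact permutation, two-sided (scipy 1.17.1). Depth was 42858 to 93433 back-splice reads per library; intervals and the limit of 3 counts at 0 cover counting error only.

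Named genes are those past the threshold, the 10 with the lowest p per direction (at least 30 counts at day 90), the 10 with the highest count, and per list up to 4 members with the highest count (10 for insulin and IGF-1). Members, the 17 lists and the rules were chosen with earlier results of these data known. DESeq2 1.42.0 and the other alternatives are given below. The fits were tested on simulated counts. A few named genes are not reported here. FIRRE amplicon libraries and linear RNA were not used here.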

Additional observations from a re-analysis of the deposited data

How the results depend on the processing

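The NPAS3 host gene call held in 16 of 19 settings, with log2 changes of -7.22 to -4.75 and adjusted p-values from 4.3e-06 to 1. With a minimum of 50 counts and with DESeq2's Wald test, 0 host genes and 0 circRNAs were called with all libraries. At a minimum of 50 counts without untreated replicate 1, 1 host gene and 1 circRNA were lower (adjusted p = 0.00912 and 0.0213 from edgeR). Leaving out each library in turn gave 0 to 1 host genes, 1 to 2 circRNAs and, beside the loss of untreated replicate 1, 1 to 2 host genes and 1 to 3 circRNAs. The 0 came without untreated replicate 2, where NPAS3 had an adjusted p of 0.155 from edgeR. Added calls included the host gene ZBTB20 and single circRNAs of ZBTB20, SEPTIN10 and ZNF91, named after their values were seen. Differences between days stayed at 0 calls under each alternative.

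The difference of means, treated minus untreated, ranged over the left-out libraries from 1.48 to 151.7 RPM. It ranged from -411.3 to 2681 circRNAs, -124.8 to 208.2 circRNAs at 1 depth, -56.3 to 448.7 host genes and -36.0 to 60.6 host genes at 1 depth, each below 0 without untreated replicate 1. For median span it ranged from -136.3 to 302.7 bases, below 0 without untreated replicate 3 and without treated replicate 2, and for exon number from -0.0152 to 0.0981, below 0 without treated replicate 2. The mesenchyme list median was 0.12 with DESeq2 size factors. The other list medians moved by less than the spread between libraries (39 of 40 values), and 86 named host genes other than NPAS3 had 0 calls in any setting at the level of the summed host gene count, 13 changing sign with TMM, 19 with DESeq2 size factors and 18 without untreated replicate 1. With the read numbers implied by the study's normalised counts, an alternative chosen after seeing the data, the median log2 change was 0.05 and NPAS3 stayed called. The causes were not tested.

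Whether replicate numbers pair the cultures could not be settled. Deviations of same-numbered libraries from their group means correlated at -0.042, 0.134 and 0.0996 over 2787 genes. For untreated replicates 2 and 3 the same-numbered treated library correlated best. The other treated libraries gave -0.0313 and -0.101 with untreated replicate 2, and 0.0758 and -0.177 with untreated replicate 3. Untreated replicate 1 correlated best with treated replicate 2 (0.0379). With the replicate number as a block, 1 host gene and 1 circRNA were called, NPAS3 in both (adjusted p = 0.00488 from edgeR for the gene), and 0 differences between days.

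Depth limits these results: the median SE of the log2 change was 1.19 under 30 counts and 0.38 from 300 counts on.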

Other observations

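Zinc finger genes named ZNF, from a large family of DNA-binding repressors and noticed after their values were seen, had 97 host genes tested. Zinc finger genes under other names were not counted. Of the 97, 7 were higher and 0 lower at an unadjusted p under 0.05, beside 122 and 45 of all 4933 (edgeR). The median log2 change of the ZNF genes was 0.31, 0.15 with TMM and 0.01 without untreated replicate 1, where 5 of 95 were higher and 0 lower. Kinesins named KIF, noticed in the same way through KIF23 and KIF5B, had 23 host genes tested, of which 2 were higher and 0 lower. Their median was 0.11, -0.09 with TMM and -0.16 without untreated replicate 1. The 2 were KIF23 and KIF5B.

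Abundant circRNAs found in one group only were few. With at least 10 counts in a group and 0 in the other, 22 circRNAs were found in treated and 18 in untreated libraries only, while 4809 with at least 10 counts in either group were found in both. At 20 counts the numbers were 0 and 1.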
